A study of Mus musculus with 12 samples.

Results

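The genes described here encode the structural extracellular matrix, 39 genes in all, of which 13 belong to the basement membrane (type IV and XVIII collagen, laminin chains, nidogens, perlecan and agrin) and 26 to the interstitial matrix. They were chosen by gene symbol, and each gene was read from the probe set with its highest mean level over the 12 arrays. A probe set naming it was found for 38 of the 39 (Fbn1 was not analysed here), out of 45101 probe sets on the array, and 30 genes (13 basement membrane, 17 interstitial) reached a signal of 100 on at least 4 arrays and were tested among 10269 genes. The cells were endothelial cells cultured from wildtype newborn mice, grown in DMEM with fetal calf serum, glutamine and penicillin/streptomycin, and hybridised to 1 Affymetrix mouse array per sample. The tmTNF group (4 arrays) was stably transfected with a murine TNFalpha mutant that cannot be cleaved and stays in the membrane, for chronic activation. The sTNF group (4 arrays) received soluble TNFalpha at 20 ng/ml for 4 h, for acute activation. The control group (4 arrays) was mock-transfected, and the design set each exposure against it. The labels do not say which promoter drove the transgene, whether the transfected cells were a clone, or whether replicates were separate cultures, so a p-value here speaks of the spread from array to array, and that spread may be technical.

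The basement membrane is a thin sheet under endothelium in which a laminin polymer and a type IV collagen network are joined by nidogens and by the heparan sulfate proteoglycans perlecan and agrin. Endothelial cells make much of it themselves. The interstitial matrix is built of fibrillar collagens (types I, III and V), collagen VI microfilaments, elastic fibres with their fibulins, small leucine-rich proteoglycans such as decorin, and adhesive glycoproteins such as fibronectin and tenascin C, and is mostly the product of fibroblasts and smooth muscle cells.

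The arrays of one group were not alike. All 18 endothelial markers passed the filter, but the mean level of the list relative to its 12-array average was lowest on control 3 (-2.24 on the log2 scale), tmTNF 2 (-1.46), tmTNF 4 (-1.27) and sTNF 1 (-0.89). Krt19, a keratin of epithelial and mesothelial cells, had signals of 11494.3 on tmTNF 2, 5563.7 on tmTNF 4, 3244 on sTNF 1, 2801 on sTNF 4 and 7119.8 on control 3, against at most 396.7 on the other arrays. Those 5 arrays lie in all 3 groups. Prrx1, a transcription factor of mesenchymal cells, had signals of 558.1 to 2624.8 on tmTNF 2, 3 and 4, 1532 and 1637.8 on sTNF 1 and 4, and 613 and 690.1 on control 3 and 4, against at most 31.7 on the other 5 arrays. Of the other fibroblast markers tested, Pdgfra was highest on the same arrays (118.9 to 943.7, at most 111.7 elsewhere), and Pi16 and Lsp1 on some of them. Mfap5 was instead highest on control 2 (905.4), sTNF 2 (487.1) and sTNF 3 (334.9), where Prrx1 was low. Cd34 and S100a4 were lowest on control 3 (149.6 and 3385.4), where Prrx1 was high. Summed signals of the endothelial list ran from 29013 to 147132 on tmTNF arrays, 35400 to 92797 on sTNF arrays and 15026 to 145749 on control arrays. Of 16 fibroblast markers 7 were tested and 6, Thy1, Dpt, Tcf21, Twist1, Twist2 and Clec3b, stayed under 100 on every array by the probe set used, with sums of 20792 to 40833 in tmTNF, 33558 to 46623 in sTNF and 5344 to 43347 in control cells. These sums were mostly S100a4 and Cd34 (26694.5 and 15485.6 on control 2) and say little of the other fibroblast markers. Of 12 mesothelial markers only Krt19 and Msln were tested and 9, Wt1 and Upk3b among them, stayed under 100 throughout, with sums of 321 to 14214 in tmTNF, 528 to 4584 in sTNF and 493 to 10725 in control cells. Of 13 smooth muscle and pericyte markers 4 were tested and 7, Myh11, Cnn1, Des and Rgs5 among them, stayed under 100, with sums of 2846 to 4934 in tmTNF, 3367 to 5806 in sTNF and 2266 to 5824 in control cells. Of 10 leukocyte markers 4 were tested and 6, Ptprc, Itgam, Adgre1, Cd3e, Cd79a and Tyrobp, stayed under 100, with sums of 5249 to 7770 in tmTNF, 634 to 1135 in sTNF and 857 to 18908 in control cells. The highest of these sums was mostly Cd68 (18210 on control 1), and those of tmTNF 2 and 4 were mostly Cd14 (5128.6 and 4762.5). None of the marker genes tested passed an adjusted p of 0.05 in any comparison (limma). In such bulk RNA, fewer cells of a type and less RNA per cell cannot be told apart. The Y-linked genes Eif2s3y, Kdm5d and Uty were at 218.8 or above on all tmTNF arrays and at 39.5 or below on the other 8, so every difference of tmTNF cells from another group runs alongside this one and cannot be told apart from it. The probe set of Tnf, the transfected gene, read 10 to 77.2 in tmTNF, 6.2 to 14.3 in sTNF and 7.3 to 25.7 in control cells, and whether the construct covers it is not stated. Across genes, sTNF 1 and 4 correlated at 0.983 and sTNF 2 and 3 at 0.962, the 2 closest pairs of that group. Whether such a pair shares a culture or RNA is not stated and was not tested, and all fits count them as 4 arrays.

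Among the matrix genes, fibulin 2 was lower and agrin higher in tmTNF than in sTNF cells, and no other structural matrix gene passed the test in any comparison. Against control, 0 of 30 genes were called in tmTNF cells, where 0.195% of all genes were, and 0 of 30 in sTNF cells, where 0.039% were (limma, Benjamini-Hochberg adjusted p under 0.05 over all 10269 genes). Between tmTNF and sTNF cells 2 of 30 were called, 1 higher and 1 lower in tmTNF, against 1.22% of all genes (0.954% higher, 0.263% lower). At an unadjusted p under 0.05, 5 of 30 stood apart in tmTNF against control (2 higher, 3 lower; of all genes 7.56%, 4.81% higher and 2.75% lower), 3 of 30 in sTNF against control (2 higher, 1 lower; of all genes 12.7%, 5.4% higher and 7.28% lower) and 5 of 30 in tmTNF against sTNF (3 higher, 2 lower; of all genes 19.9%, 12.4% higher and 7.49% lower). The groups compared did not overlap for 1 gene in tmTNF against control (Fbln2; 3.17% of all genes), 1 in sTNF against control (Lama5; 8.11%) and 2 in tmTNF against sTNF (Fbln2 and Col5a2; 16.1%), which for sTNF against control and for tmTNF against sTNF is a smaller share than among all genes. The comparisons share their arrays and are not independent of each other.

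**Figure D1:**
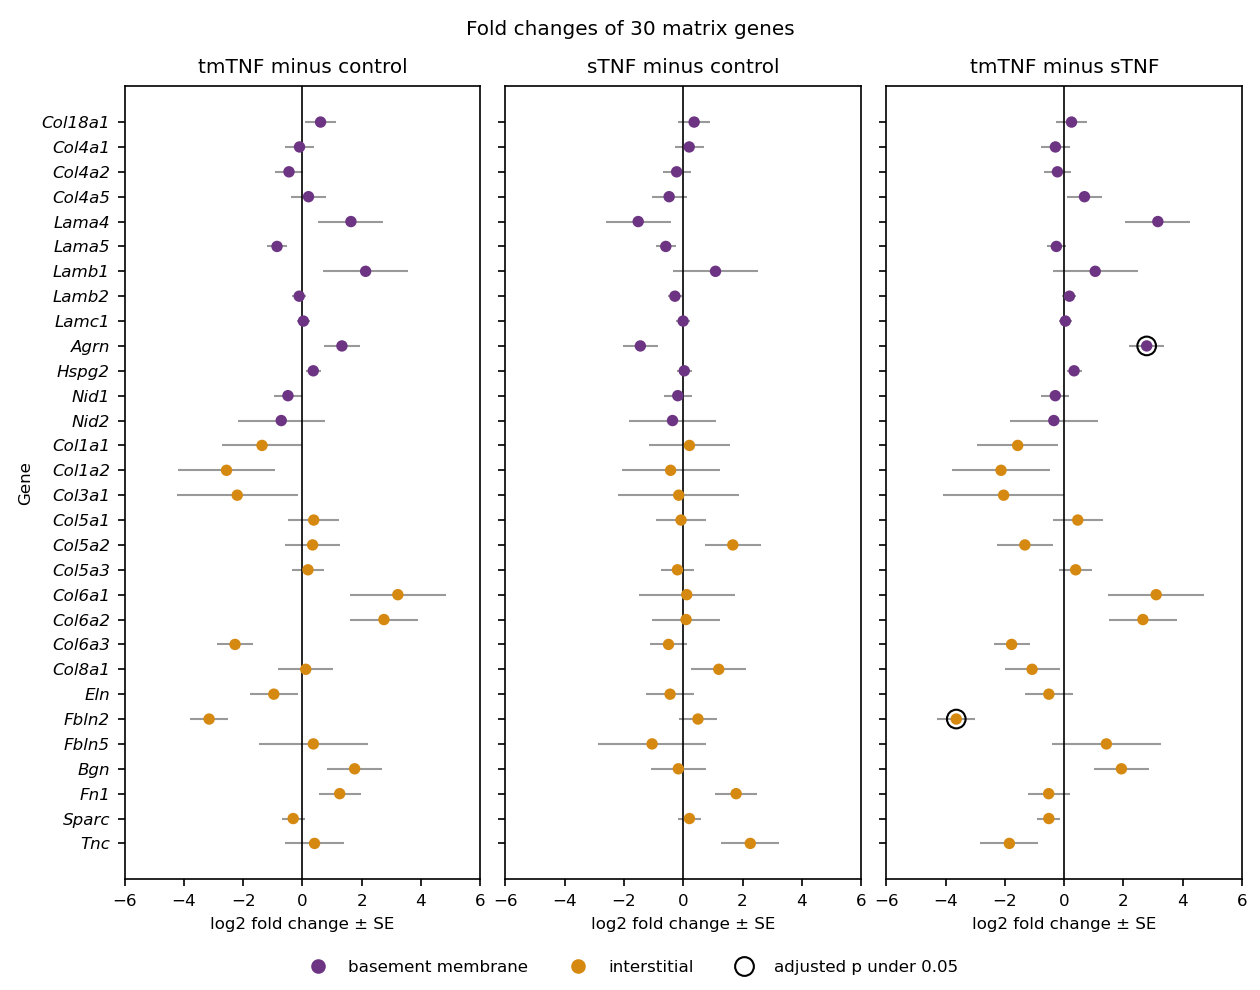
Log2 fold change (x axis, log2 units) with its standard error for each of the 30 matrix genes tested (y axis), in tmTNF against control, sTNF against control and tmTNF against sTNF cells, purple for basement membrane and orange for interstitial genes. Rings mark the 2 genes past an adjusted p of 0.05, agrin at 2.78 and fibulin 2 at -3.64 in tmTNF against sTNF cells.

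Fibulin 2 and agrin carried the calls, and Col6a1 and Col6a2 had the highest log2 fold changes of the members in tmTNF against control cells, so the windows around their start sites are given here, 250 bases before to 50 after the start, from RefSeq (GRCm38.p6). They are read 5′ to 3′ on the gene's own strand, at chr6:91212514-91212813 (plus strand) for Fbln2, chr4:156197439-156197738 (minus) for Agrn, chr10:76725995-76726294 (minus) for Col6a1 and chr10:76623581-76623880 (minus) for Col6a2. Capitals mark matches to the GC box GGGCGG and to the AP-1 motif TGANTCA on either strand.
Fbln2: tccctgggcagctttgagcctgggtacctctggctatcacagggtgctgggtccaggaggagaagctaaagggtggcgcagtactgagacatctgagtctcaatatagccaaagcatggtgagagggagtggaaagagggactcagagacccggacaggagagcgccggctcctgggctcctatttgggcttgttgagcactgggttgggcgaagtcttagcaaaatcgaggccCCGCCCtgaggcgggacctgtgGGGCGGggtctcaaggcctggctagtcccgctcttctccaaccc
Agrn: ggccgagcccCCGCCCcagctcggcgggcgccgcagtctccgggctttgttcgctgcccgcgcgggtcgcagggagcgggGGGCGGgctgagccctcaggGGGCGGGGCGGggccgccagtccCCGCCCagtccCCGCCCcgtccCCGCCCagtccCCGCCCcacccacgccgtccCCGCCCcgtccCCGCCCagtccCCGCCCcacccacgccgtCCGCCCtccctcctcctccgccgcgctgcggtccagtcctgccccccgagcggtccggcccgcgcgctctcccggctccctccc
Col6a1: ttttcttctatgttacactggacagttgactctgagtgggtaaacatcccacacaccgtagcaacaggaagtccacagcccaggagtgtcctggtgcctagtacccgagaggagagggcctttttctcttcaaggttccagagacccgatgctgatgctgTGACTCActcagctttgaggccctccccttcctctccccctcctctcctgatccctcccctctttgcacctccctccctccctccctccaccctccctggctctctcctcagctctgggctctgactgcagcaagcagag
Col6a2: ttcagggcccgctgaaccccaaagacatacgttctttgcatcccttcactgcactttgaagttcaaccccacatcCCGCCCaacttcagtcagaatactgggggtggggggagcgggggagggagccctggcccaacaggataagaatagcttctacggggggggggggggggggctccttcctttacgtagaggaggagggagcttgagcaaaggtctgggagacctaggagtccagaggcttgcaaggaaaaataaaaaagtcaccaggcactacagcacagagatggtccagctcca
The Agrn window held 12 GC boxes, neighbouring ones sharing a base in places, that of Fbln2 held 2, that of Col6a2 1 and that of Col6a1 0. Windows were found for 28 of the 39 genes, 35 windows of 300 bases in all, and 68.6% of these held a GC box, against 35.6% of all promoter windows in the table, at a median GC content of 60.3% against 52.7%. AP-1 matches were in 2.86% of the members' windows, the 1 of Col6a1, and in 7.81% of all windows. CCAAT was in 31.4% and 37.4%, TATAAA in 11.4% and 13.6%, and the NF-kB consensus in 14.3% (5 windows, that of Col6a2 among them) and 8.46%, each on both strands. These matches describe the letters only.

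Among the elastic fibre genes, Fbln2, which encodes the secreted glycoprotein fibulin 2 that binds fibronectin, basement membrane proteins and elastic fibres, had signals of 981.4, 130.5, 555.1 and 114.3 on tmTNF arrays 1 to 4, against 3730.7, 4986.8, 3166.7 and 4409.8 on sTNF arrays and 1200.1, 4296.4, 5770.9 and 2187.9 on control arrays. Every tmTNF array lay below every array of the other groups, and sTNF and control arrays overlapped. The other Fbln2 probe set read at most 45.3 on any array, so the results for Fbln2 rest on the probe set used. In tmTNF against sTNF cells the log2 fold change of Fbln2 was -3.64 ± 0.65 (SE, 4 arrays each), 12.5-fold on the log2(signal + 16) scale (limma, adjusted p = 0.0232). Against control its log2 fold change was -3.15 ± 0.65 in tmTNF cells (limma, adjusted p = 0.0842), which did not pass, and 0.50 ± 0.65 in sTNF cells (adjusted p = 0.784). The lowest signals were on tmTNF 2 and 4, which also had low endothelial markers and high Krt19. Control 3 shared both traits but had the highest Fbln2 signal of all 12 arrays (5770.9). On sTNF 1 and 4, also high in Krt19, Fbln2 read 3730.7 and 4409.8. The part of these markers in the Fbln2 level was not tested. Without tmTNF 2, tmTNF 4 and control 3 the difference from sTNF cells was -2.42 (limma, adjusted p = 0.0445). Without all 5 arrays high in Krt19 it was -2.40 (limma, adjusted p = 0.207). That setting called only 1 of all 10269 genes, so the loss of the call there is not particular to Fbln2. The call was also lost without tmTNF 2, without tmTNF 4 and without any one sTNF array (limma, adjusted p 0.0501 to 0.0928), while without tmTNF 1 Fbln2 was called against control as well (-3.69, adjusted p = 0.0161).

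Fbln5, a fibulin needed for elastic fibre assembly, was among the most variable members, with signals of 461 to 9763 in tmTNF, 71.4 to 11582.6 in sTNF and 126.8 to 17886.2 in control cells. Its 5 lowest arrays were the 5 with high Krt19. Eln, which encodes elastin itself, ran from 32.1 to 97.8 in tmTNF, 29.8 to 238.5 in sTNF and 29.2 to 895.1 in control cells, with its highest value on control 2. The probe set used for Fbln1 stayed under 100 on all 12 arrays, and another read 102.9 on sTNF 4. Neither Fbln5 nor Eln passed the test in any comparison.

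**Figure D2:**
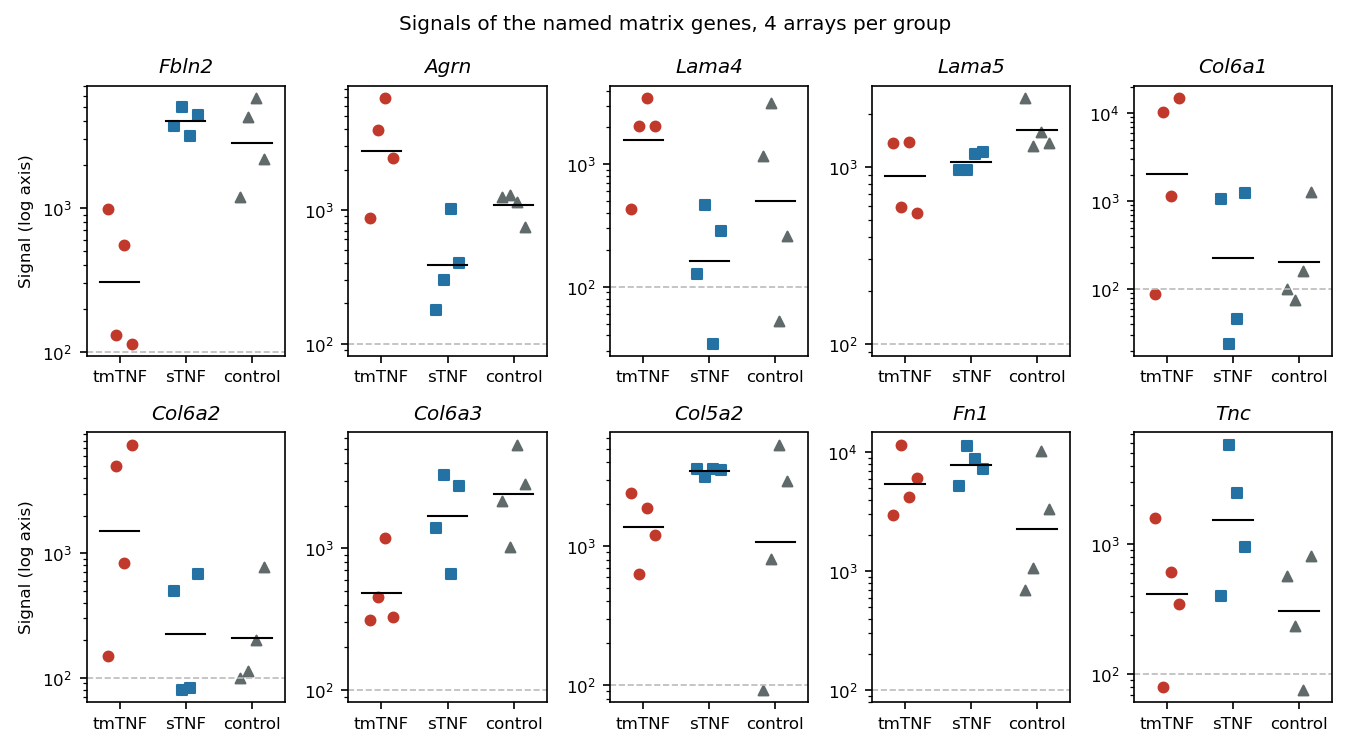
Signals (y axis, log scale) of 10 matrix genes on each array of the tmTNF, sTNF and control groups (4 points each), with a bar at the mean of log2(signal + 16) and a dashed line at the signal of 100. The 4 tmTNF points of Fbln2 lie below all others, from 114.3 to 981.4, while the groups of Agrn overlap.

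The type I and III collagen genes were high on some arrays and near background on others within the sTNF and control groups. Col1a2, an alpha chain of type I collagen, the main collagen of fibres, had signals of 58.2, 88.2, 49.6 and 33.1 on tmTNF arrays, 3248.2, 28.5, 6.1 and 2834.3 on sTNF arrays and 74.5, 89, 4009.2 and 769 on control arrays. It was thus under 100 on all tmTNF arrays and high on sTNF 1 and 4 and on control 3 and 4. Col1a1, the other type I chain, was at most 57.5 on tmTNF arrays, 429 and 494.8 on sTNF 1 and 4, 818.1 and 315.1 on control 3 and 4, and at most 31.9 on the rest. Col3a1, the type III chain, was at most 158.8 on tmTNF arrays, 4119.1 and 3758.3 on sTNF 1 and 4, 4546.6 and 1900.9 on control 3 and 4, and at most 48.6 on the rest. The same 4 arrays were thus highest for all 3 genes. Col1a2 did not pass the test in tmTNF against control cells (limma, adjusted p = 0.823) or in tmTNF against sTNF cells (limma, adjusted p = 0.497). Of the 4 high arrays, sTNF 1, sTNF 4 and control 3 also had high Krt19 and all 4 had high Prrx1, but tmTNF 2 and 4, high in both, had low type I and III collagen. The part of these markers in the collagen levels was not tested.

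Type V collagen, which starts and limits the width of fibrils, did not follow that pattern throughout. Col5a2 had signals of 2422.2, 633.2, 1896.5 and 1200.3 on tmTNF arrays, 3591.8, 3128.7, 3588.7 and 3548.7 on sTNF arrays and 91.9, 813.2, 5366.2 and 2927.4 on control arrays. The sTNF arrays were close together and all above the tmTNF arrays, while control arrays spread on both sides. The log2 fold change of Col5a2 was -1.33 ± 0.94 (SE) in tmTNF against sTNF cells (limma, adjusted p = 0.451) and 1.67 ± 0.94 in sTNF against control cells (adjusted p = 0.481). That value was 0.56 without control 1, the array with the signal of 91.9. Col5a2 lies next to Col3a1 on chromosome 1, with no protein-coding gene between. Col5a1 ran from 184.8 to 2712.8 and Col5a3 from 126.7 to 795.4 over the 12 arrays, and neither was called.

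Of the collagen VI chains, which assemble as 3 different chains into beaded filaments around cells, 2 were high on particular tmTNF arrays and the other was low there. Col6a1 had signals of 87.4, 10305.4, 1134.2 and 14785.6 on tmTNF arrays, 1050.5, 24.1, 45.8 and 1241.3 on sTNF arrays and 100.2, 75, 160.9 and 1264.6 on control arrays. Col6a2 had signals of 150.6, 4981.5, 829.8 and 7405.7 on tmTNF arrays, 493.4, 79.5, 82.4 and 675.1 on sTNF arrays and 99.3, 114.2, 199.5 and 768.2 on control arrays. Both were far highest on tmTNF 2 and 4, and tmTNF 1 lay among the other groups. The 7 highest arrays were the same for both genes and were the 7 with high Prrx1, whose part was not tested. The log2 fold change of Col6a1 was 3.22 ± 1.62 (SE) in tmTNF against control cells (limma, adjusted p = 0.707) and 3.10 ± 1.62 against sTNF cells (adjusted p = 0.305). That of Col6a2 was 2.75 ± 1.14 in tmTNF against control cells (limma, adjusted p = 0.616) and 2.66 ± 1.14 against sTNF cells (adjusted p = 0.225). Without the 3 arrays lowest in endothelial markers (tmTNF 2, tmTNF 4 and control 3) the values for Col6a1 were 0.53 against control and 0.52 against sTNF cells, and those for Col6a2 were 0.72 and 0.65. Without the 5 arrays high in Krt19, which leaves out sTNF 1 and 4 as well, the values against sTNF cells were 2.79 for Col6a1 and 1.95 for Col6a2. The probe set used for Col6a2 can by its type also bind related transcripts, and its other probe set gave a log2 fold change of 3.86 in tmTNF against control cells. The genes lie next to each other on chromosome 10.

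Col6a3, which encodes the longest chain, had signals of 311.5, 454.8, 1189.1 and 325.7 on tmTNF arrays, 1393.6, 3301.7, 655.9 and 2751 on sTNF arrays and 2167.6, 1020.2, 5368.2 and 2820.9 on control arrays. All tmTNF arrays but tmTNF 3 lay below every sTNF and control array. The log2 fold change was -2.27 ± 0.61 (SE) against control (limma, adjusted p = 0.245) and -1.77 ± 0.61 against sTNF (adjusted p = 0.147), and it passed against sTNF under array weights alone (adjusted p = 0.0393), a setting that called 1176 of all 10269 genes (11.5%) there. Col8a1, a short-chain collagen made by endothelium and smooth muscle, ran from 420.2 on control 3 to 14806.9 on control 2 and was not called. The probe sets used for Col12a1 and Col15a1 stayed under 100 on all 12 arrays. Another Col12a1 probe set read 143.7 on sTNF 4 and 113.1 on control 3 and was under 100 elsewhere.

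**Figure D3:**
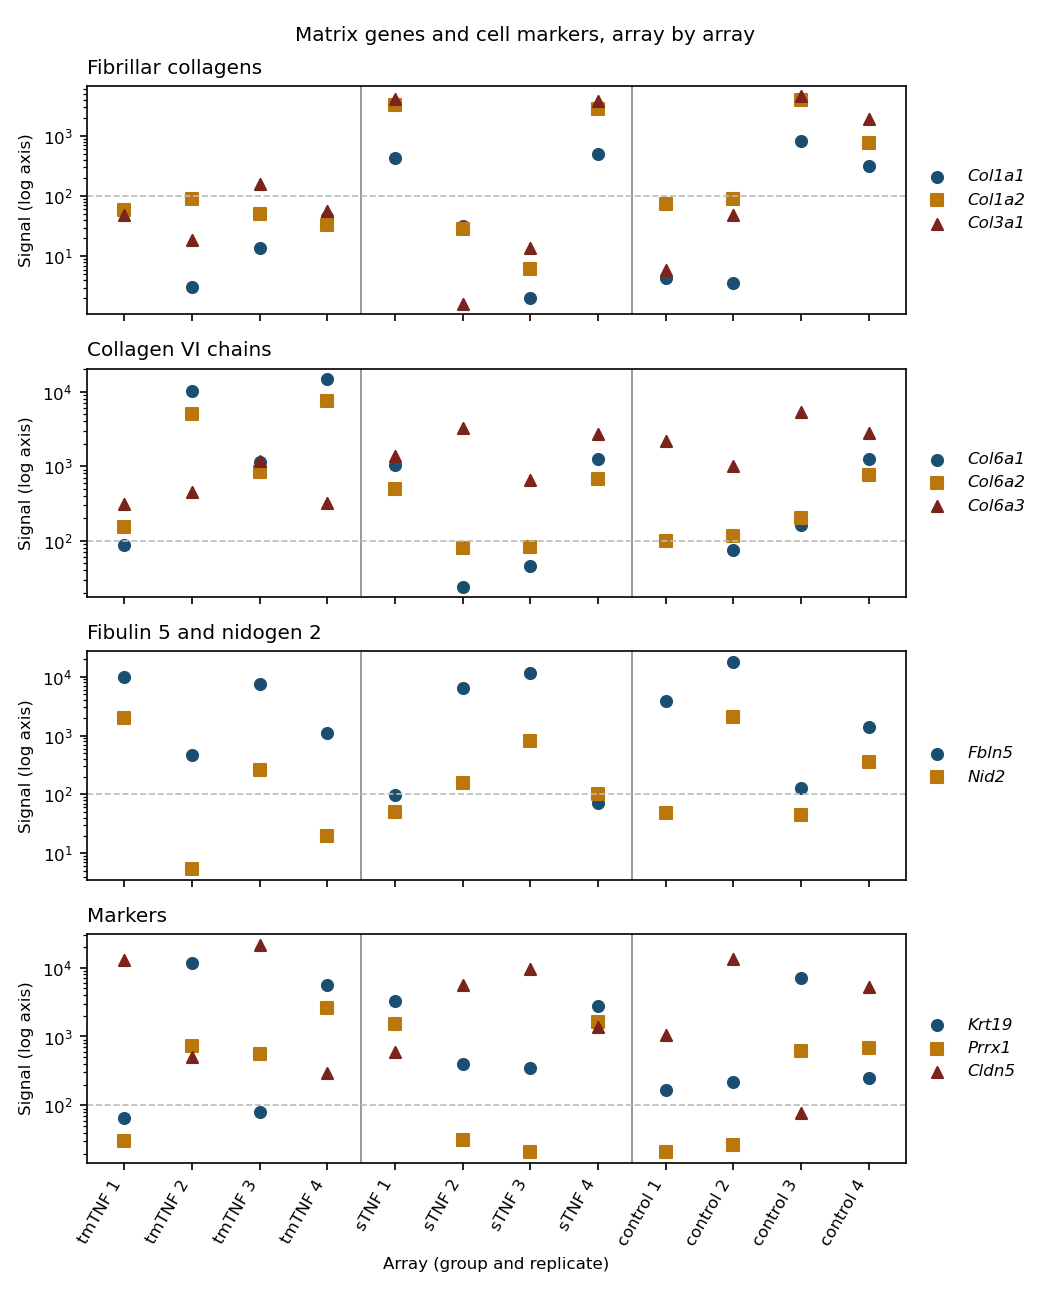
Signals (y axes, log scale) of type I and III collagen genes, collagen VI genes, Fbln5 with Nid2, and the markers Krt19, Prrx1 and Cldn5 on each of the 12 arrays (x axis), with a dashed line at the signal of 100 and vertical lines between groups. Col1a1, Col1a2 and Col3a1 are highest on sTNF 1, sTNF 4, control 3 and control 4, and Col6a1 and Col6a2 on tmTNF 2 and tmTNF 4.

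Among the small leucine-rich proteoglycans, Bgn (biglycan) had signals of 691, 63, 3069.2 and 195.9 on tmTNF arrays, 50.7 to 183.4 on sTNF arrays and 56.9 to 332.1 on control arrays, and was not called. Dcn encodes decorin, which binds fibrils of type I collagen. Its signals were 3.7, 3276.5, 185.5 and 7270.8 on tmTNF arrays, at most 25.4 on sTNF arrays and at most 27.7 on control arrays. Dcn was thus on where Col6a1 was highest, on tmTNF 2 and 4, but reached 100 on fewer than 4 arrays and was not tested. Lum (lumican), its neighbour on chromosome 10, and Vcan (versican) stayed under 100 on all 12 arrays.

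Among the adhesive and matricellular genes, Tnc and Fn1 had the highest fold changes of all members in sTNF against control cells, without passing. Tnc, which encodes tenascin C, a glycoprotein made in tissue repair and inflammation, had signals of 1581.4, 80.1, 606.2 and 345.1 on tmTNF arrays, 402.7, 5779.8, 2484.1 and 944.8 on sTNF arrays and 567.5, 234.6, 75.7 and 806 on control arrays. Of the sTNF arrays 3 lay above all controls. The log2 fold change of Tnc was 2.26 ± 0.98 (SE) in sTNF against control cells (limma, adjusted p = 0.378; unadjusted p = 0.0396) and -1.85 ± 0.98 in tmTNF against sTNF cells (adjusted p = 0.313). Fn1, which encodes fibronectin, had signals of 2948.9, 11537.5, 4196.8 and 6039.3 on tmTNF arrays, 5159, 11341.2, 8734.4 and 7230.6 on sTNF arrays and 699.8, 1071.3, 10138.2 and 3344.5 on control arrays. All groups overlapped, control 3 lying among the highest. Its log2 fold change against control was 1.26 ± 0.70 in tmTNF cells (limma, adjusted p = 0.759) and 1.78 ± 0.70 in sTNF cells (adjusted p = 0.339; unadjusted p = 0.0262), and in tmTNF against sTNF cells it was -0.52 ± 0.70 (adjusted p = 0.712). Without control 3 the values against control were 1.98 in tmTNF and 2.50 in sTNF cells, and without control 1 they were 0.70 and 1.23. Sparc, which encodes a collagen-binding protein abundant in cultured endothelium, was between 9831.2 and 40641.3 on every array and was not called. Mgp (matrix Gla protein, an inhibitor of calcification) had a signal of 2490.5 on tmTNF 3, 242.8 on control 4 and 124.2 on tmTNF 2, was under 100 elsewhere and was not tested. Postn (periostin) stayed under 100 on all 12 arrays.

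**Figure D4:**
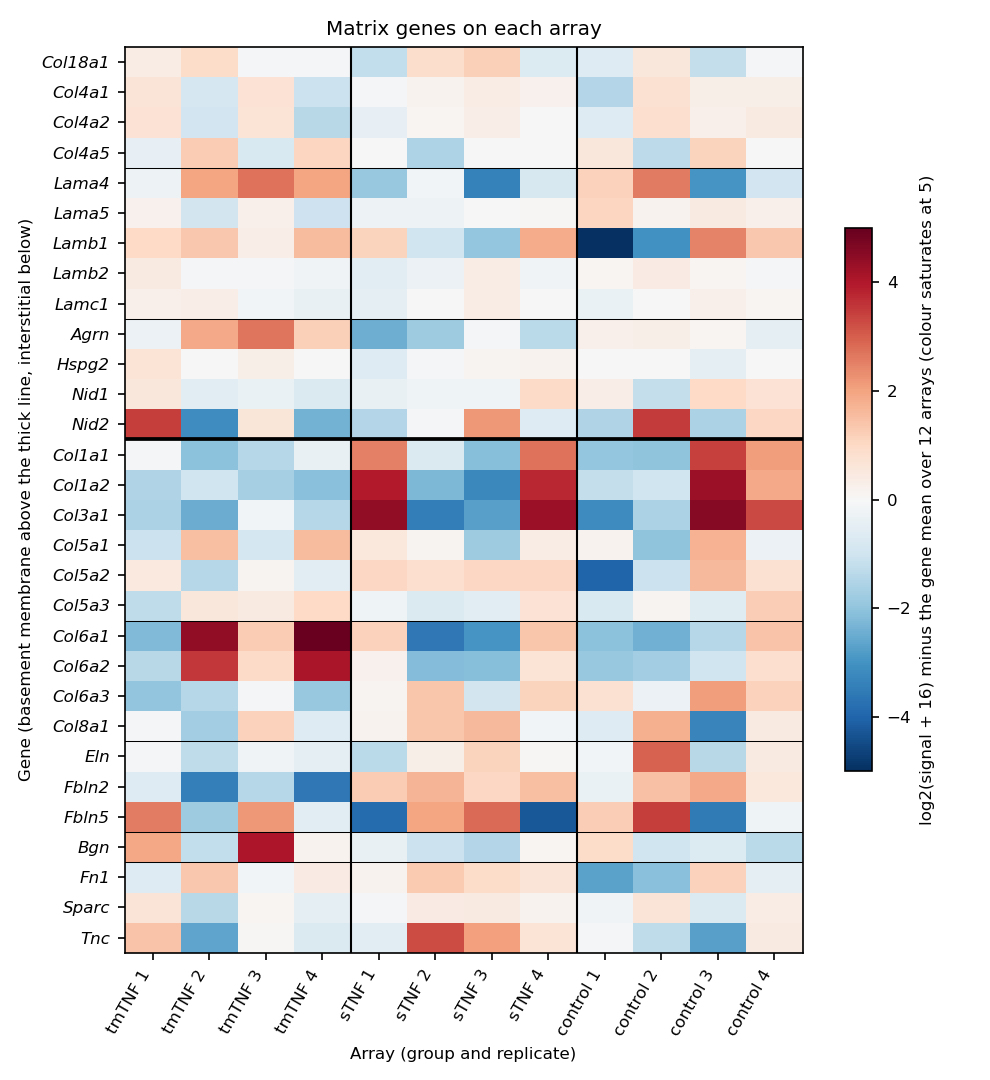
Log2(signal + 16) of each of the 30 tested genes minus its mean over the 12 arrays (colour, log2 units, saturating at 5), with arrays in columns by group and genes in rows, basement membrane above the thick line and interstitial below, thin lines separating roles. Strong colours are mostly below the thick line and follow arrays more than groups, as in Col1a1, Col1a2 and Col3a1.

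In the basement membrane, the type IV collagen genes were strongly detected on every array. Col4a1 ran from 6905 to 24474 in tmTNF, 13982.9 to 18786 in sTNF and 5323.4 to 24668.3 in control cells. Col4a2 ran from 3171.7 to 13712.1 in tmTNF, 6211.6 to 10383.8 in sTNF and 5329.7 to 14889 in control cells. These genes, whose chains form one heterotrimer, were highest on the same 3 arrays (tmTNF 1, tmTNF 3 and control 2) and lowest on the same 3 (tmTNF 2, tmTNF 4 and control 1). They lie head to head on chromosome 8 and share part of their start region. The RefSeq windows, at chr8:11312777-11313076 (minus strand) for Col4a1 and chr8:11312555-11312854 (plus strand) for Col4a2 (GRCm38.p6), are shown to give that shared stretch, 78 bases in capitals.
Col4a1: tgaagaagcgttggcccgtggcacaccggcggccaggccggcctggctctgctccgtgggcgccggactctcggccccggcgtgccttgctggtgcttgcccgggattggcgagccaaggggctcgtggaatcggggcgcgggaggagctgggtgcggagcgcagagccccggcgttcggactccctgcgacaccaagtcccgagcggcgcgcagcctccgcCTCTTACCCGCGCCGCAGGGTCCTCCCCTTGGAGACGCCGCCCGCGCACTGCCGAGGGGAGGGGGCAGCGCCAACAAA
Col4a2: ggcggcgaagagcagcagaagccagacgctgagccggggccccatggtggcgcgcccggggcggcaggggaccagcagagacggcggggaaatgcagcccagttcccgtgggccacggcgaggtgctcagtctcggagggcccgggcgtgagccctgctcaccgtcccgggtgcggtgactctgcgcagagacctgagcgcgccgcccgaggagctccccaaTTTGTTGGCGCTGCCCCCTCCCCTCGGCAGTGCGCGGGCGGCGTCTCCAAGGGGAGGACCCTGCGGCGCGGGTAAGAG
Col4a5, a chain of other type IV trimers, was highest on tmTNF 2 (3386.5), tmTNF 4 (2961.2) and control 3 (2987.5), the 3 arrays with the lowest endothelial marker levels, and at most 2050.6 on the rest. Col18a1, whose C-terminal fragment is endostatin, ran from 2997.7 to 16397.9 over the 12 arrays. None of the 4 genes was called in any comparison, and no log2 fold change among them went beyond 0.68 in size.

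Laminin chains differed in how steady they were. Lama4, the alpha chain of a laminin typical of vessels, had signals of 430.1, 2068, 3456.6 and 2041.3 on tmTNF arrays, 127.9, 462.2, 34.3 and 284 on sTNF arrays and 1157.5, 3175.2, 52.2 and 260.2 on control arrays. All tmTNF arrays but tmTNF 1 lay above every sTNF array, and controls spanned both. Its log2 fold change was 3.16 ± 1.10 (SE) in tmTNF against sTNF cells (limma, adjusted p = 0.151), 1.64 ± 1.10 in tmTNF against control cells (adjusted p = 0.833) and -1.52 ± 1.10 in sTNF against control cells (adjusted p = 0.584), and the first of these passed under array weights alone (adjusted p = 0.041), where 11.5% of all genes were called. Against control the values rested on single control arrays, with 0.67 in tmTNF and -2.49 in sTNF cells without control 3, and 2.52 in tmTNF and -0.64 in sTNF cells without control 2. Lama5, the alpha chain of the other main endothelial laminin, had signals of 1361.8, 598.1, 1395.4 and 550.9 on tmTNF arrays, 960, 963.2, 1180.3 and 1217 on sTNF arrays and 2454.3, 1310.7, 1583.3 and 1366.1 on control arrays. Every sTNF array lay below every control array, and tmTNF 2 and 4 were lowest of all. Its log2 fold change against control was -0.85 ± 0.33 in tmTNF cells (limma, adjusted p = 0.580) and -0.59 ± 0.33 in sTNF cells (adjusted p = 0.480). Lamb1 ranged from 16.6 on control 1 to 6186.4 on control 3, whereas Lamb2 and Lamc1, a beta chain and the gamma chain common to most laminins, stayed within 315.5 to 630.9 and within 1535.2 to 2717 by the probe sets used. Another Lamc1 probe set ran from 118.6 to 592.6.

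Agrn encodes agrin, a heparan sulfate proteoglycan known for clustering acetylcholine receptors and also found in vascular basement membranes. Its signals were 866.3, 3974.6, 6812.8 and 2447.5 on tmTNF arrays, 179.8, 297.9, 1013.4 and 400.3 on sTNF arrays and 1253.8, 1296.9, 1135.7 and 745.8 on control arrays. Of the tmTNF arrays 3 lay above all others, while tmTNF 1 lay below sTNF 3. The other Agrn probe set read at most 45 on any array, so the results for Agrn rest on the probe set used. In tmTNF against sTNF cells the log2 fold change of Agrn was 2.78 ± 0.60 (SE, 4 arrays each), 6.89-fold (limma, adjusted p = 0.0479). Against control its log2 fold change was 1.34 ± 0.60 in tmTNF cells (limma, adjusted p = 0.641) and -1.45 ± 0.60 in sTNF cells (adjusted p = 0.359), the control mean lying between. The call was close to the threshold. It was lost in 9 of 12 fits that left out 1 array, namely without control 2, control 3, control 4, tmTNF 2, tmTNF 3, tmTNF 4, sTNF 1, sTNF 2 or sTNF 4 (limma, adjusted p 0.05 to 0.143). It was also lost without the 3 arrays lowest in endothelial markers (2.61; limma, adjusted p = 0.124) and without the 5 arrays high in Krt19 (2.11; limma, adjusted p = 0.379). With those 5 arrays left out only 1 of all 10269 genes was called, so the loss there is not particular to Agrn. Hspg2 (perlecan) stayed within 241.7 to 624.2 on all 12 arrays by the probe set used, with a log2 fold change of 0.37 in tmTNF against control cells. Its other probe set ran from 113.8 to 613.2 and gave 1.06 there. Nid1, which links laminin to type IV collagen, ran from 2656.2 to 12320.1, and its paralogue Nid2 from 5.3 on tmTNF 2 to 2048.2 on control 2. Nid2 was lowest on tmTNF 2, tmTNF 4 and control 3, the arrays with the lowest endothelial marker levels. None of these 3 genes was called.

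As classes, basement membrane and interstitial genes had median log2 fold changes of 0.04 and 0.19 in tmTNF against control cells (all genes 0.03), -0.22 and 0.10 in sTNF against control cells (all genes -0.05), and 0.18 and -0.52 in tmTNF against sTNF cells (all genes 0.08). Within a group the class medians of single arrays had an SD of 0.229 for basement membrane and 0.591 for interstitial genes on the log2 scale. That is the spread of single arrays and not the error of a difference between groups. Whether a class median differs from 0 was not tested. With the same median on every array the basement membrane medians were -0.11, -0.14 and -0.05 and the interstitial medians 0.07, 0.09 and -0.76 in the same order of comparisons, and those of all genes -0.12, 0.04 and -0.15. The interstitial median in tmTNF against sTNF cells was -0.07 without the 5 arrays high in Krt19 and -1.08 with the filter at 250. Log2 fold changes over 1 in size made up 23.1% of basement membrane, 52.9% of interstitial and 6.75% of all genes in tmTNF against control cells. These shares were 23.1%, 29.4% and 7.47% in sTNF against control cells, and 23.1%, 70.6% and 12.6% in tmTNF against sTNF cells.

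Interstitial genes also varied more between arrays of the same group. The SD within groups had a median of 1.51 for the 17 interstitial genes, 0.797 for the 13 basement membrane genes and 0.448 for all genes tested (log2 units), and it exceeded 1 for 14 of 17 interstitial genes, 3 of 13 basement membrane genes (Nid2, Lamb1 and Lama4) and 11.5% of all genes. By the probe sets used, the steadiest members were Lamb2 (0.302), Lamc1 (0.306) and Hspg2 (0.319), and the most variable Col3a1 (3.33), Fbln5 (2.998) and Col1a2 (2.69). Other probe sets of Lamc1 (118.6 to 592.6) and Hspg2 (113.8 to 613.2) were less steady. The interstitial genes that passed the filter include ones present on few arrays, such as the type I and III collagens, and no test was made of the difference between the classes.

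**Figure D5:**
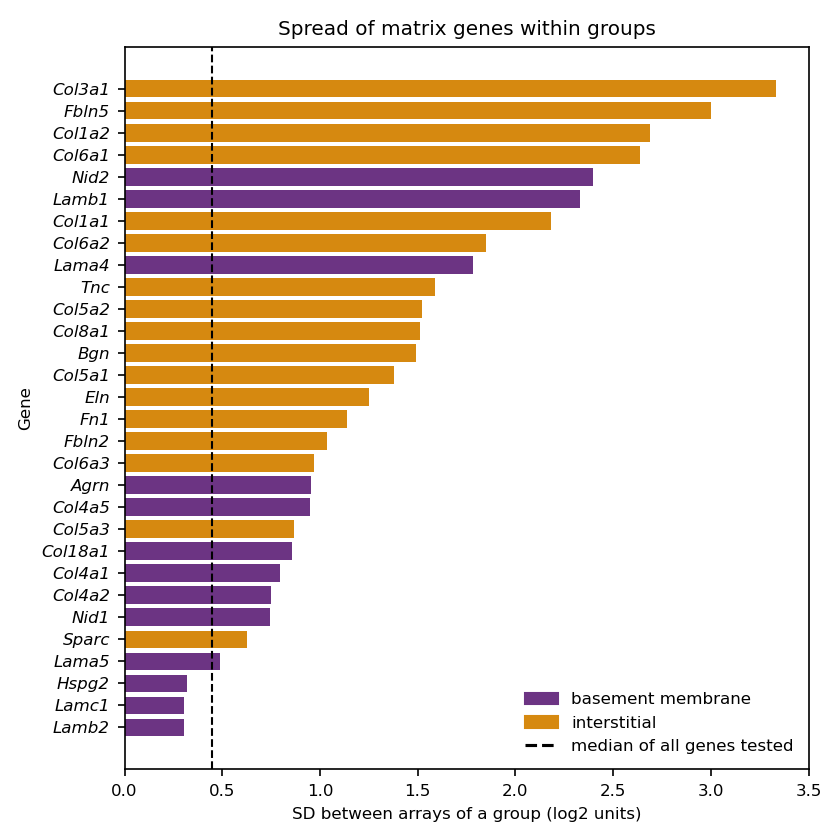
SD between arrays of one group (x axis, log2 units, pooled over the 3 groups) for each of the 30 matrix genes, purple for basement membrane and orange for interstitial, with a dashed line at the median of all genes tested, 0.448. Lamb2, Lamc1 and Hspg2 are left of the line, and Col3a1 is at 3.33.

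Genes that process collagen and that bind matrix were read beside the structural genes. Of 20 tested genes for collagen processing and cross-linking, 1 was called, Plod1, a lysyl hydroxylase, and of 19 tested matrix receptors 1 was called, Ddr2, a tyrosine kinase receptor for fibrillar collagen, both in tmTNF against sTNF cells. Of all genes 1.22% were called there. None of either list was called against control. An unadjusted p under 0.05 was reached by 3 of 20 processing genes and 3 of 19 receptors in tmTNF against control cells (7.56% of all genes), by 2 of 20 and 2 of 19 in sTNF against control cells (12.7% of all genes), and by 5 of 20 and 3 of 19 in tmTNF against sTNF cells (19.9% of all genes; limma). Plod1 had signals of 1211.1, 1091.4, 3405.3 and 905.7 on tmTNF arrays, 226.3, 312.3, 419.8 and 350.4 on sTNF arrays and 1609.9, 1167.5, 646.7 and 554.2 on control arrays. Every tmTNF array lay above every sTNF array (log2 fold change 2.10 ± 0.43, SE; limma, adjusted p = 0.0401). Ddr2 had signals of 119.4, 288.8, 433.5 and 307.8 on tmTNF arrays, at most 51.9 on sTNF arrays and at most 73 on control arrays. It was under 100 on every sTNF and control array. With those arrays held at 100 it was at least 2.40-fold higher in tmTNF than in sTNF cells, a bound that was not itself tested. The call in tmTNF against sTNF cells (limma, adjusted p = 0.0257) came from the fit on the signals as read. Ddr2 thus passed the filter only through the tmTNF arrays, the group where it was high. Its call is therefore no separate support for that difference. Serpinh1, a collagen chaperone, was at 9434.8 or above on all arrays but control 1, where it read 2.5. Lox and Loxl1, enzymes that cross-link collagen and elastin, and P4ha3 stayed under 100 on every array by the probe sets used.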

How the data were processed

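The authors deposited one linear signal intensity for each probe set on each array, computed with MAS5 per the submitters' processing notes, with no version or setting given in the sources used here. Every deposited array had a 2% trimmed mean of 1000. For this report the 64 control probe sets were set aside, each array's trimmed mean was brought to 500, and values were analysed as log2(signal + 16). Probe sets were named from the platform annotation (34945 with 1 gene symbol, 932 with several, 9160 with none), of which 34741 were matched by gene identifier to RefSeq (GRCm38.p6). A probe set had to reach 100 on 4 of 12 arrays, and each gene was represented by its brightest probe set. Detection calls were not used, so a signal of 100 stands in for detection. The 3 groups were fitted together with limma 3.58.1 (R 4.3.3; lmFit and trended eBayes); p-values are two-sided and adjusted by Benjamini-Hochberg over 10269 genes. The number of arrays limits the precision.

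The members and the lists of processing genes, receptors and markers were chosen with earlier results of these data known. Values on every array are given for members that were called, that did not overlap between groups, or that had one of the 3 largest absolute fold changes in a comparison. The other genes with values, such as Col6a3, the type I and III collagens, Fbln5, Nid2, Dcn, Krt19 and Prrx1, were picked after their values were seen. A class or list level on an array is the mean of log2 values, each minus its 12-array mean. Replicate numbers follow the order of deposit and pair nothing. No 2 arrays of a group were identical. Across genes, which are no replicates, arrays of a group correlated at 0.796 to 0.939 in tmTNF, 0.877 to 0.983 in sTNF and 0.744 to 0.881 in control cells. Alternatives changed the scaling, pseudocount, filter, choice of probe set, groups in the fit, intensity trend, array weights and the arrays included.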

Additional observations from a re-analysis of the deposited data

Results flagged for a closer look

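Col5a2 on sTNF 2, with a signal of 3128.7, lay far from the other sTNF arrays relative to the range of that group (a gap of 0.913 of the range, above Dixon's 95% limit for 4 arrays). It was the 1 such array among 30 sets of a gene and a group examined, and chance alone gives about 1 in 20.

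Fbln2 differed between the exposures (tmTNF minus sTNF, log2 fold change -3.64; limma, adjusted p = 0.0232), as did Agrn (2.78; limma, adjusted p = 0.0479).

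Dcn on tmTNF 4 had a signal of 7270.8 and Mgp on tmTNF 3 a signal of 2490.5. Both genes were outside the fit because they reached 100 on fewer than 4 arrays, and control arrays reached at most 27.7 for Dcn and 242.8 for Mgp.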

How the results depend on the processing

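Of 14 settings other than leaving out single arrays, Fbln2 kept its call in tmTNF against sTNF cells in 13 (adjusted p 0.00203 to 0.207 by limma) and Agrn in 7 (0.00779 to 0.379). The number of members called there was 1, Fbln2, under quantile normalization, with no filter, with every probe set tested, with 2 groups in the fit and with no intensity trend, and 4 under array weights (Agrn, Col6a3, Fbln2 and Lama4), a setting that called 1176 of 10269 genes (11.5%) against 125 without weights and in which sTNF 1 and 4 had weights of 3.52 and 3.97. Leaving out 1 array at a time gave 0 to 2 members called in tmTNF against sTNF cells and 0 to 1 in tmTNF against control cells. Of all genes, 0.273% to 2.27% were called against sTNF and 0.156% to 0.643% against control in those fits. Fbln2 kept its call against sTNF in 6 of those 12 fits (log2 fold change -4.18 to -3.21) and Agrn in 3 (2.35 to 3.33). In alternatives chosen after seeing the data, 1 member (Fbln2) was called against sTNF without the 3 arrays lowest in endothelial markers. That setting called 154 of all 10269 genes (1.5%). Without the 5 arrays high in Krt19, 0 members were called, where 1 of all 10269 genes was (0.00974%). The basement membrane median was then 0.30 in tmTNF against control cells under both, and 0.53 without the 3 arrays and 0.44 without the 5 in tmTNF against sTNF cells, where leaving out single arrays gave -0.10 to 0.37. With the same median on every array, the median of all genes in tmTNF against sTNF cells was -0.15, against 0.08. The cause was not tested. No member was called in sTNF against control cells under any setting, where at most 0.214% of all genes were. No paired analysis was possible because replicate numbers follow the order of deposit only. Signals near or under 100 limit what can be said of Col1a1, Col1a2, Col3a1, Eln, Bgn, Nid2 and the 8 members outside the fit. Signals under 100 also enter the fold changes of Col5a2, Col6a1, Col6a2, Fbln5, Tnc, Lama4 and Lamb1.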
